A study of Arabidopsis thaliana with 12 samples.

Results

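The 10 genes described here sense salicylic acid or mark its response, and were taken by locus identifier from the 27655 genes of the deposited expression table: the salicylic acid receptors NPR1, NPR3 and NPR4, the NPR1-binding proteins NIMIN1 and NIMIN2, the immune regulators EDS1 and PAD4, and the pathogenesis-related (PR) genes PR1, PR2 and PR5. All 10 were found. The RNA came from 7-day-old seedlings of wild type Columbia Arabidopsis thaliana, grown at 21°C under 8 h of light and 16 h of dark. The 4 groups of 3 libraries were 27°C with mannitol, 27°C, 21°C with mannitol, and 21°C. Mannitol, a sugar alcohol, makes water harder for roots to take up and is used in place of drought. The labels name no dose. Both treatments began 1 h after lights on, and every library was collected 13 h after lights on, so a change in level and a shift of the daily rhythm cannot be told apart. The labels do not say whether the 3 libraries of a group came from separate plantings, and the p-values then reflect the spread of these libraries, which may be technical.

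Salicylic acid is a plant hormone made when pathogens are sensed, and it reprograms transcription. NPR1 is a coactivator that works through DNA-binding TGA factors, whereas NPR3 and NPR4 bind salicylic acid and act as corepressors of the same genes until the hormone relieves them. EDS1 and PAD4 are lipase-like proteins that pair with each other and raise salicylic acid and immune signalling, and the PR genes encode secreted defence proteins that are widely used as a readout of the pathway.

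Levels are in TPM, a length-corrected share of each library's transcripts, so genes can be set beside one another within a library. Reads were recovered from the steps of the TPM values and came to between 13478365 and 14573463 per library. Differences are on the log2(TPM + 1) scale with the standard error (SE) of the limma fit, and are called at an adjusted p below 0.05 over 20005 tested genes; ± beside a TPM is the standard deviation (SD, n = 3). Genes needed at least 1 TPM in at least 3 libraries, which 8 of the 10 genes met. NIMIN1 and PR1 did not, and PR2 did only through the 27°C with mannitol libraries, where it was highest, so counts over the tested genes describe them and support nothing further. Since TPM values share a fixed sum, median-of-ratios rescaling shifted the mannitol differences of all genes by -0.19 at 27°C and -0.10 at 21°C on the log2 scale. It shifted the warmth differences by -0.17 among mannitol-treated seedlings and -0.09 among the others. Calls that it ended are named for the 10 genes, while for the wider lists only counts are given. Organ markers were present in every library, with 8 of 8 root markers and 6 of 6 green tissue markers above 0. The summed green tissue markers ran from 30994 to 33077 TPM at 27°C with mannitol against 44344 to 46587 TPM at 27°C, and from 35435 to 38516 TPM at 21°C with mannitol against 44186 to 47316 TPM at 21°C. The summed root markers ran from 105 to 114 TPM at 27°C with mannitol, 113 to 136 TPM at 27°C, 91.3 to 121 TPM at 21°C with mannitol and 59.6 to 96.8 TPM at 21°C. The part of organ make-up in the results was not tested, and in RNA from seedlings more RNA per cell and more cells of a kind cannot be told apart.

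The mannitol comparisons moved these genes upwards, and the warmth comparisons moved them both ways: PR5 fell with warmth at either mannitol state, while NPR3 and NPR4 rose. The rises of NPR3 and NPR4 with warmth among mannitol-treated seedlings ended with rescaling. At 27°C, 8 of the 8 tested genes were called higher with mannitol and 0 lower, where 34.5% of all tested genes were called, 27.7% higher and 6.80% lower. At 21°C, 7 of the 8 were called higher and 0 lower, where 20.0% of all tested genes were called, 15.4% higher and 4.61% lower. The median log2 difference of the 8 tested genes was 0.67 at 27°C and 0.64 at 21°C, against 0.17 and 0.08 over all tested genes. Warmth alone raised 2 of the 8 tested genes and lowered 1, where 44.8% of tested genes were called, 28.2% higher and 16.6% lower. With mannitol in both groups, warmth raised 4 and lowered 2, where 54.0% were called, 37.5% higher and 16.5% lower. The count for warmth alone lies near the share over all genes. The count with mannitol in both groups fell to 3 with rescaling. Neither is read as a result about these genes. The 4 comparisons share libraries, so each is given by its own values. Rescaling changed how all called genes split into higher and lower. Mannitol then gave 2346 and 2983 in place of 5544 and 1361 at 27°C, and 2069 and 1907 in place of 3089 and 922 at 21°C. Warmth gave 4606 and 5077 in place of 7496 and 3306 among mannitol-treated seedlings, and 4405 and 4351 in place of 5636 and 3322 without mannitol. The interaction gave 314 and 740 in place of 486 and 538.

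**Figure D1:**
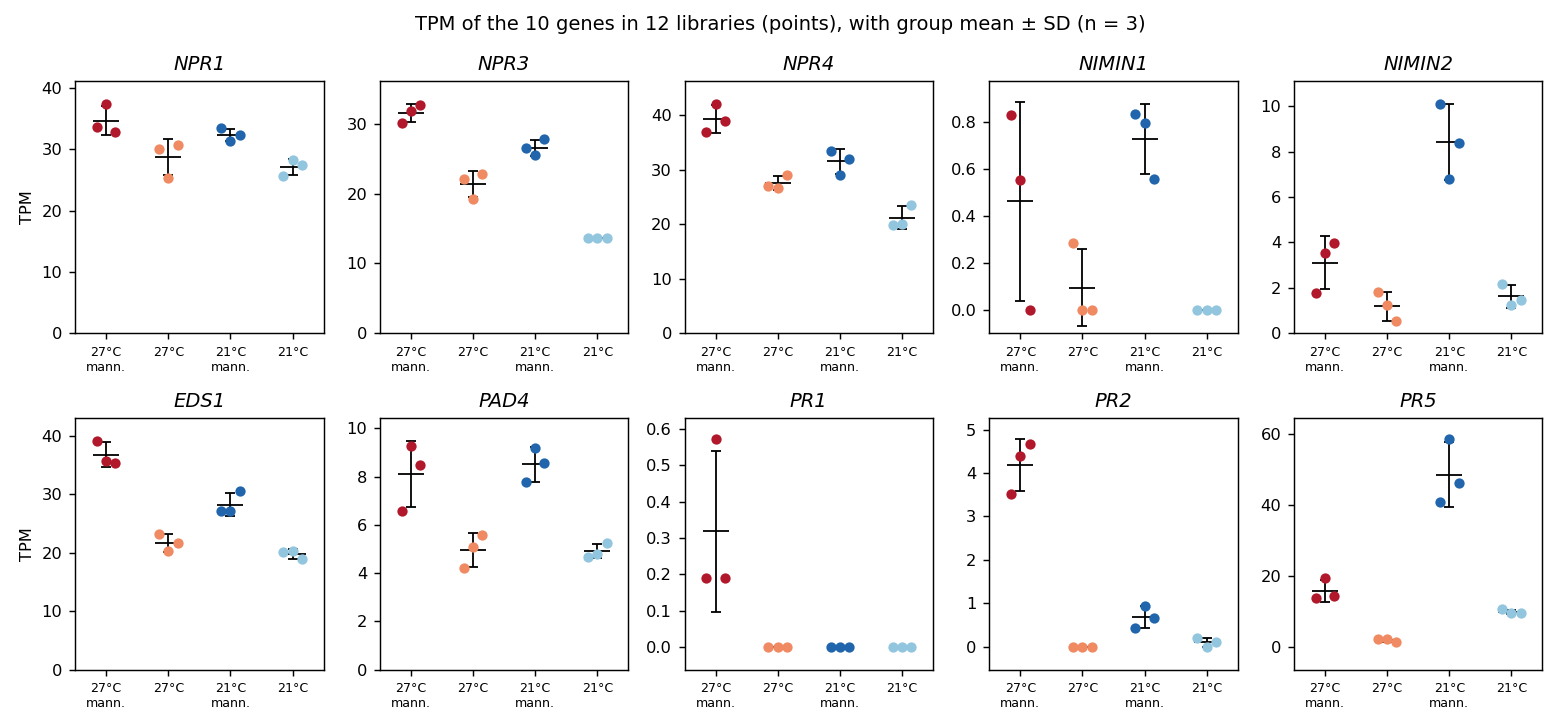
TPM of each of the 10 genes (vertical axes, each with its own scale) in the 12 libraries, with groups along the horizontal axis. Points are libraries, dashes and whiskers the group mean ± SD; NPR3 lies near 13.6 TPM in all 3 libraries at 21°C, PR5 is highest at 21°C with mannitol, and PR2 is highest at 27°C with mannitol.

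NPR1, the coactivator, differed little between groups. NPR1 (AT1G64280) had 33.7, 37.4 and 32.9 TPM at 27°C with mannitol, against 30.1, 25.3 and 30.7 TPM at 27°C, and 33.4, 31.4 and 32.3 TPM at 21°C with mannitol, against 25.7, 28.2 and 27.5 TPM at 21°C. Both mannitol groups lay above their own mannitol-free group with no overlap, but by little. The difference was 0.27 ± 0.09 at 27°C (adjusted p = 0.0269) and 0.25 ± 0.09 at 21°C (adjusted p = 0.0589), so only the first was called; the interaction, which is the mannitol difference at 27°C minus that at 21°C, was 0.02 ± 0.12 (adjusted p = 0.941). The call at 27°C ended with rescaling (0.08, adjusted p = 0.525), without 27°C with mannitol replicate 2 (adjusted p = 0.120) and without 27°C replicate 2 (adjusted p = 0.0876), and it missed the threshold with only the 2 groups compared (adjusted p = 0.0769) and with voom (adjusted p = 0.0550). The difference at 21°C passed without 27°C replicate 1 (adjusted p = 0.0476) or 27°C replicate 2 (adjusted p = 0.0187). Those libraries only inform the shared spread. The difference at 21°C also passed with only the 2 groups compared (adjusted p = 0.0275) and with voom (adjusted p = 0.0462). It did not pass in the other settings, among them rescaling (0.14, adjusted p = 0.253) and leaving out 21°C replicate 1 (0.21, adjusted p = 0.186). The warmth difference of NPR1 did not pass, at 0.07 ± 0.09 without mannitol and 0.09 ± 0.09 with it (adjusted p = 0.527 and 0.376), with signs that turned to -0.02 and -0.08 under rescaling.

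NPR3 (AT5G45110), one of the 2 corepressor-type receptors, rose with both treatments. It stood at 30.2, 31.9 and 32.7 TPM at 27°C with mannitol and at 22.1, 19.2 and 22.8 TPM at 27°C. At 21°C with mannitol it had 26.5, 25.5 and 27.8 TPM, against 13.6, 13.6 and 13.6 TPM at 21°C. No 2 groups overlapped, and the order was 27°C with mannitol, 21°C with mannitol, 27°C, then 21°C. Mannitol raised NPR3 by 0.55 ± 0.08 at 27°C (adjusted p = 0.000170) and by 0.92 ± 0.08 at 21°C (adjusted p = 1.29e-06). The interaction was -0.37 ± 0.12 (adjusted p = 0.0849); it passed with rescaling (-0.46, adjusted p = 0.0250), with voom (-0.45, adjusted p = 0.0327) and without 27°C replicate 2 (adjusted p = 0.0226). Warmth raised it by 0.61 ± 0.08 (adjusted p = 3.19e-05) and, among mannitol-treated seedlings, by 0.24 ± 0.08 (adjusted p = 0.0242). The last call ended with rescaling (0.06, adjusted p = 0.543), with voom (0.16, adjusted p = 0.0906) and without 27°C with mannitol replicate 2 or 3 (adjusted p = 0.0656 and 0.0815) or 21°C with mannitol replicate 1 or 2 (adjusted p = 0.0582 and 0.0844).

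NPR4 (AT4G19660), its close relative, also rose with both treatments. Its levels were 37, 42.1 and 38.9 TPM at 27°C with mannitol, 27.1, 26.6 and 29.1 TPM at 27°C, 33.5, 29.1 and 32 TPM at 21°C with mannitol, and 19.9, 20 and 23.6 TPM at 21°C. The 27°C libraries and the 21°C with mannitol libraries met at 29.1 TPM, and the other groups stood apart. Mannitol raised it by 0.49 ± 0.09 at 27°C (adjusted p = 0.000652) and by 0.56 ± 0.09 at 21°C (adjusted p = 0.000370), with an interaction of -0.06 ± 0.13 (adjusted p = 0.830). Warmth raised it by 0.37 ± 0.09 (adjusted p = 0.00329) and, with mannitol in both groups, by 0.31 ± 0.09 (adjusted p = 0.00851), a call that ended with rescaling (0.13, adjusted p = 0.211).

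The ratios of the receptor transcripts to each other also differed between groups. The ratio of NPR3 to NPR1 was 0.853 to 0.993 at 27°C with mannitol, 0.736 to 0.759 at 27°C, 0.794 to 0.862 at 21°C with mannitol and 0.482 to 0.528 at 21°C. The ratio of NPR4 to NPR1 was 1.1 to 1.18 at 27°C with mannitol and 0.901 to 1.05 at 27°C. At 21°C with mannitol it was 0.926 to 1, and at 21°C 0.709 to 0.856. NPR4 transcripts thus outnumbered NPR1 transcripts in every library at 27°C with mannitol and in none at 21°C. The ratios are given as a description, with no test.

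**Figure D2:**
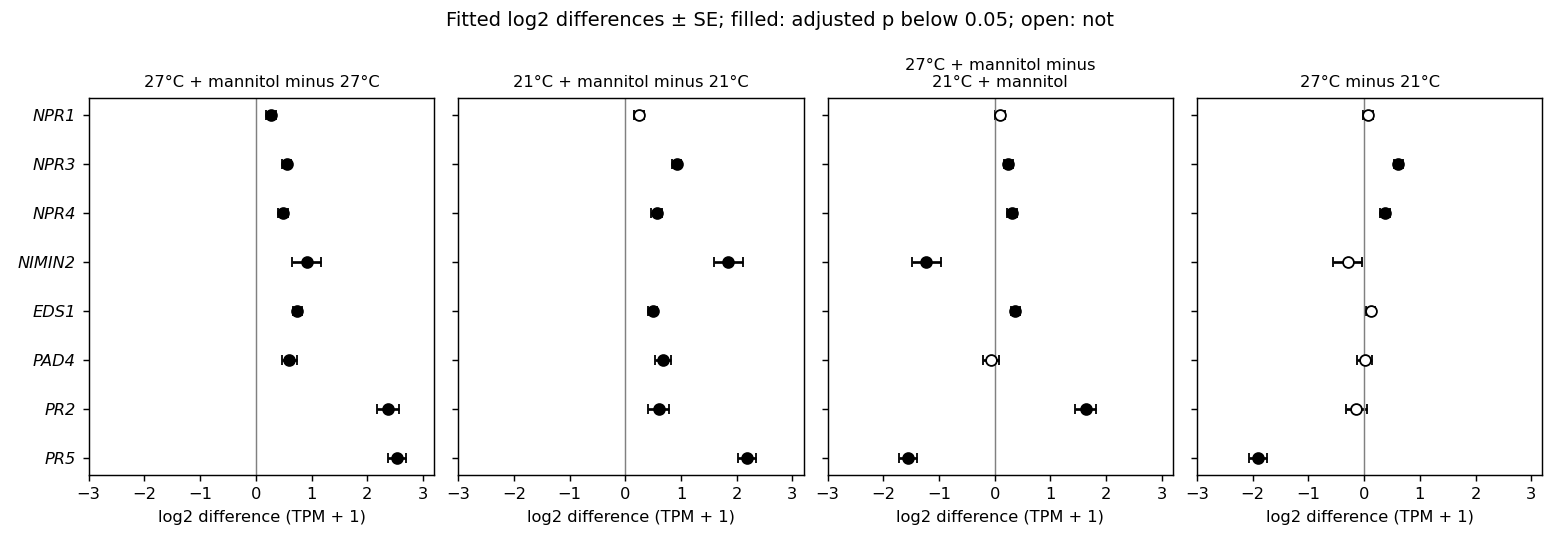
Fitted log2 differences on the log2(TPM + 1) scale (horizontal axes) with SE for the 8 tested genes (rows) in 4 comparisons (panels); filled points passed and open points did not. Mannitol differences lie to the right of 0 at both temperatures, while with warmth PR5 lies at -1.91 and -1.56 and PR2 at -0.14 and 1.63.

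NIMIN2 (AT3G25882), a small protein that binds NPR1 and is induced early by salicylic acid, was highest at 21°C with mannitol. It had 1.77, 3.54 and 3.99 TPM at 27°C with mannitol, against 1.81, 1.22 and 0.514 TPM at 27°C, and 10.1, 6.77 and 8.4 TPM at 21°C with mannitol, against 2.18, 1.23 and 1.45 TPM at 21°C. The 21°C with mannitol libraries stood above all others, and the 27°C pair of groups overlapped. These levels rest on 7, 14 and 16 reads at 27°C with mannitol, 7, 5 and 2 reads at 27°C, 40, 28 and 33 reads at 21°C with mannitol and 9, 5 and 6 reads at 21°C. Mannitol raised it by 1.85 ± 0.26 at 21°C (adjusted p = 0.000105). At 27°C the difference was 0.91 ± 0.26 (adjusted p = 0.0139), a call that ended without 27°C with mannitol replicate 2 or 3 (adjusted p = 0.0587 and 0.0679), without 27°C replicate 3 (adjusted p = 0.0687) and in a voom fit to the recovered reads (adjusted p = 0.0732). The interaction was -0.94 ± 0.36 (adjusted p = 0.170), and it passed with a pseudocount of 5 (-0.63, adjusted p = 0.0382). Among mannitol-treated seedlings warmth lowered NIMIN2 by 1.23 on the log2 scale (SE 0.26, adjusted p = 0.00104), whereas without mannitol the difference was -0.29 ± 0.26 (adjusted p = 0.379).

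NIMIN1 (AT1G02450), the relative that represses NPR1-dependent PR1 expression, was barely detected. It was listed at 0.83, 0.554 and 0 TPM at 27°C with mannitol, against 0.284, 0 and 0 TPM at 27°C, and at 0.831, 0.795 and 0.558 TPM at 21°C with mannitol, against 0 in all 3 libraries at 21°C. These values stand for 3, 2 and 0 reads, 1, 0 and 0 reads, and 3, 3 and 2 reads, and 3 reads of this gene correspond to 0.794 to 0.851 TPM. With no filter on low values the mannitol difference at 21°C was 0.79 ± 0.18 (adjusted p = 0.0117) and that at 27°C 0.38 ± 0.18 (adjusted p = 0.141). The first rests on 8 reads in all and is measured from a group at 0, so its size depends on the pseudocount. The 2 differences were not told apart, with an interaction of -0.40 ± 0.26 (adjusted p = 0.453).

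The 250 bases before the annotated gene start were searched for TGACG, the core bound by TGA factors, and TTGAC, the core of the W-box bound by WRKY factors, on both strands. TGACG was found before 3 of the 10 genes, TTGAC before 5 and both before 2, where 18.6%, 44.9% and 11.7% of 27437 genes had them in the same window. Shown 5′ to 3′ on the gene's strand are the genes whose levels differ most in order between groups, NIMIN2 and PR5 against PR2, and the receptor genes that rose with both treatments, NPR3 and NPR4. Capitals mark the motif matches on either strand. In the TAIR10.1 assembly of RefSeq the windows are chr3:9471040-9471289 (minus strand) for NIMIN2, chr1:28177420-28177669 (plus strand) for PR5, chr3:21189968-21190217 (minus strand) for PR2, chr5:18228518-18228767 (plus strand) for NPR3 and chr4:10698812-10699061 (minus strand) for NPR4.
NIMIN2: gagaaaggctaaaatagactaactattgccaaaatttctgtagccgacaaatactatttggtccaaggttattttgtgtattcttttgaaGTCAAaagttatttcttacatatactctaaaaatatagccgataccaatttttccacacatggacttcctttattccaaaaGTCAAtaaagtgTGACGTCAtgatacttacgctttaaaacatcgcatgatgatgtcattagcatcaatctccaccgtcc
PR5: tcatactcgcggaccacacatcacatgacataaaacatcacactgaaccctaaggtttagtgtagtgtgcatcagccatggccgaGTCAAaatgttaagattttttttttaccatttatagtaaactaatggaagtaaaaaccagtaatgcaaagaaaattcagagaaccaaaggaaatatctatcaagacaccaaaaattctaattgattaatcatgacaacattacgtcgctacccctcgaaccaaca
PR2: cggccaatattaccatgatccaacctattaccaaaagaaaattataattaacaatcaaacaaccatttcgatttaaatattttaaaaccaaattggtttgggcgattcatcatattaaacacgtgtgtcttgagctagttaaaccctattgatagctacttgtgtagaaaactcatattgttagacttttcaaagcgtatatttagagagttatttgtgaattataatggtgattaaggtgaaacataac
NPR3: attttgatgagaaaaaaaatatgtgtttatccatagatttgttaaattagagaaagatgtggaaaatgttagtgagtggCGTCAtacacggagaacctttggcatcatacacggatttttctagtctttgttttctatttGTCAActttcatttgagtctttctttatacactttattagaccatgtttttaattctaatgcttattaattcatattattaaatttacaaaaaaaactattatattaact
NPR4: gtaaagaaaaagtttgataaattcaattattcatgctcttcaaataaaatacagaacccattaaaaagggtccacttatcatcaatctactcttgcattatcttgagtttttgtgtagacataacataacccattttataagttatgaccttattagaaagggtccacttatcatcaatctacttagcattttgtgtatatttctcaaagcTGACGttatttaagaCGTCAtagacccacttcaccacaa

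NIMIN2 had the most matches, with 2 TGACG matches on opposite strands that overlap each other, 67 to 60 bases before the start, and 2 TTGAC matches further out. NPR4 had 2 TGACG matches on opposite strands within 39 bases of the start, and NPR3 had 1 of each core. PR5, EDS1 and PR1 had 1 TTGAC match each. NPR1, NIMIN1, PAD4 and PR2 had neither core in this window. A match is a run of letters and not a measured binding site.

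**Figure D3:**
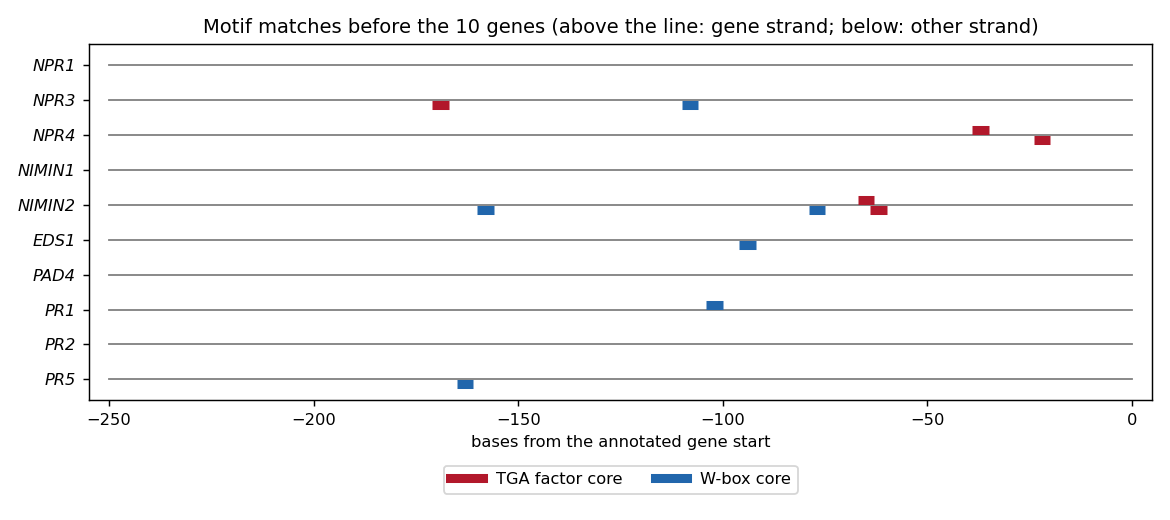
Position of motif matches in the 250 bases before each of the 10 genes (rows), in bases from the annotated start, which is at 0. Red marks the TGA factor core and blue the W-box core, above the line on the gene's strand and below it on the other strand; NIMIN2 carries 4 matches, and 4 genes carry none.

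EDS1 and PAD4, which act together, both rose with mannitol at either temperature. EDS1 (AT3G48090) had 39.2, 35.8 and 35.4 TPM at 27°C with mannitol, against 23.3, 20.3 and 21.6 TPM at 27°C, and 27.2, 27.1 and 30.5 TPM at 21°C with mannitol, against 20.2, 20.4 and 18.9 TPM at 21°C. The 3 libraries of 27°C with mannitol were above all others, and the mannitol-free groups overlapped. Mannitol raised EDS1 by 0.74 ± 0.08 at 27°C (adjusted p = 1.03e-05) and by 0.49 ± 0.08 at 21°C (adjusted p = 0.000620), with an interaction of 0.25 ± 0.12 (adjusted p = 0.261). Warmth raised it by 0.37 ± 0.08 with mannitol in both groups (adjusted p = 0.00173; 0.19 and adjusted p = 0.0670 with rescaling), and without mannitol the difference was 0.12 ± 0.08 (adjusted p = 0.250). Its near-identical neighbour EDS1B (AT3G48080) was listed at 3.5 ± 0.593 TPM at 27°C with mannitol and 2.42 ± 0.727 TPM at 27°C. At 21°C with mannitol EDS1B stood at 3.4 ± 0.75 TPM, and at 21°C at 2.31 ± 0.788 TPM. EDS1B passed in no comparison, and the sources used here do not say how reads shared by the 2 copies were counted, so the EDS1 level is uncertain to that extent.

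PAD4 (AT3G52430) was less abundant than EDS1 and separated the libraries by mannitol. It had 6.57, 9.26 and 8.48 TPM at 27°C with mannitol, against 4.21, 5.1 and 5.59 TPM at 27°C, and 7.76, 9.2 and 8.55 TPM at 21°C with mannitol, against 4.68, 4.8 and 5.26 TPM at 21°C. All 6 mannitol libraries lay above all 6 others, and neither temperature pair separated. Mannitol raised PAD4 by 0.60 ± 0.14 at 27°C (adjusted p = 0.00402) and by 0.68 ± 0.14 at 21°C (adjusted p = 0.00260). The warm difference was 0.01 ± 0.14 without mannitol (adjusted p = 0.969) and -0.07 ± 0.14 with it (adjusted p = 0.689), and the interaction -0.08 ± 0.20 (adjusted p = 0.859). The signs of these 3 small values changed when single libraries were left out.

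The PR genes did not move as one. PR5 (AT1G75040), a thaumatin-like protein, was the most abundant of the 3, rose with mannitol and fell with warmth. It had 13.9, 19.4 and 14.2 TPM at 27°C with mannitol, against 2.09, 2.21 and 1.43 TPM at 27°C, and 40.7, 58.7 and 46.2 TPM at 21°C with mannitol, against 10.6, 9.42 and 9.51 TPM at 21°C. No 2 groups overlapped, and the warm libraries with mannitol stood just above the cool ones without it. Mannitol raised PR5 by 2.53 ± 0.16 at 27°C (adjusted p = 2.37e-08) and by 2.18 ± 0.16 at 21°C (adjusted p = 1.16e-07). Warmth lowered it, by -1.91 ± 0.16 without mannitol (adjusted p = 2.92e-07) and by -1.56 ± 0.16 with it (adjusted p = 1.69e-06). The interaction was 0.35 ± 0.22 (adjusted p = 0.404) and turned to -0.25 with a pseudocount of 5.

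PR2 (AT3G57260), a beta-1,3-glucanase that cuts a fungal cell wall polymer, had the opposite temperature order among mannitol-treated seedlings. It was listed at 3.51, 4.4 and 4.66 TPM at 27°C with mannitol, against 0 in all 3 libraries at 27°C, and at 0.439, 0.946 and 0.664 TPM at 21°C with mannitol, against 0.211, 0 and 0.105 TPM at 21°C. In recovered reads these are 32, 40 and 43 reads at 27°C with mannitol, 0 at 27°C, 4, 9 and 6 reads at 21°C with mannitol and 2, 0 and 1 reads at 21°C. All 3 libraries at 27°C with mannitol stood above every other library, and 3 reads would be 0.317 to 0.338 TPM in the 27°C libraries. The fitted mannitol difference was 2.37 ± 0.19 at 27°C (adjusted p = 3.29e-07) and 0.60 ± 0.19 at 21°C (adjusted p = 0.0365). The first is measured from a group at 0, so its size depends on the pseudocount, at 5.41 with 0.1 and 0.88 with 5 added to each TPM, and it is no bound on the fold. The call at 21°C ended with a pseudocount of 5 (adjusted p = 0.129) and without 21°C with mannitol replicate 2 or 3 (adjusted p = 0.133 and 0.0877) or 21°C replicate 1, 2 or 3 (adjusted p = 0.0516, 0.117 and 0.0730). It also ended with only the 2 groups compared (adjusted p = 0.0654) and with a replicate block (adjusted p = 0.0547).

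Among mannitol-treated seedlings warmth raised PR2 by 1.63 ± 0.19 (adjusted p = 6.27e-06), and without mannitol the difference was -0.14 ± 0.19 (adjusted p = 0.578). PR2 was the 1 gene of the 8 tested whose interaction was called, at 1.77 ± 0.27 (adjusted p = 0.00116), where 2.43% of all tested genes had a called positive interaction and 2.69% a called negative one. The size of the interaction was 3.39 with a pseudocount of 0.1 and 0.72 with 5, called both times (adjusted p = 0.0251 and 0.000341). PR2 entered the test through the 3 libraries where it was highest, so the call describes these libraries. With no filter on low values the interaction stays at 1.77 by construction, since each gene's difference is fitted on its own values. Only the limma SE (0.18) and adjusted p (0.000282) change, which is no further support. Without any 1 of the 3 libraries at 27°C with mannitol the gene fell below the filter and was not tested. The ratio of PR2 to PR5 was 0.227 to 0.328 at 27°C with mannitol and 0 at 27°C, and 0.0108 to 0.0161 at 21°C with mannitol against 0 to 0.0198 at 21°C.

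PR1 (AT2G14610), the classic salicylic acid marker, was close to absent. It was listed at 0.191, 0.574 and 0.189 TPM at 27°C with mannitol, which stand for 1, 3 and 1 reads, and at 0 in the other 9 libraries. A count of 0 allows up to 3 reads, or 0.548 to 0.588 TPM, in a single library. Any 1 library at 0 could thus have missed a level like that at 27°C with mannitol. This limit is for 1 library and not for a group of 3 libraries at 0 together. With no filter on low values the mannitol difference at 27°C was 0.39 ± 0.10 (adjusted p = 0.0127), on 5 reads in all. Such limits cover counting error only.

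The close paralogs of PR1 and PR2 had orders of their own. BG3 (AT3G57240), a glucanase gene close to PR2 on chromosome 3, had 1.38, 2.41 and 1.93 TPM at 27°C with mannitol, against 0.118, 0.221 and 0 TPM at 27°C, and 4.02, 1.98 and 2.54 TPM at 21°C with mannitol, against 0.11, 0.335 and 0.329 TPM at 21°C. Mannitol raised it by 1.37 ± 0.22 at 27°C (adjusted p = 0.000279) and by 1.58 ± 0.22 at 21°C (adjusted p = 0.000105), and its 2 mannitol groups overlapped (-0.39 ± 0.22, adjusted p = 0.153). BG3 passed the filter only through mannitol libraries, so its direction with mannitol and these adjusted p-values are no independent support. It had 1, 2 and 0 reads at 27°C and 1, 3 and 3 reads at 21°C. BG1 (AT3G57270), another glucanase gene there, was listed at 0 in all 12 libraries. PRB1 (AT2G14580), a basic PR1-like gene near PR1 on chromosome 2, was highest at 21°C without mannitol. It was listed at 0 in all 3 libraries at 27°C with mannitol, at 1.41, 0 and 0 TPM at 27°C, at 0.787, 1.32 and 1.39 TPM at 21°C with mannitol and at 4.71, 4.97 and 5.83 TPM at 21°C. At 21°C mannitol lowered PRB1 by -1.52 ± 0.28 (adjusted p = 0.00133), and without mannitol warmth lowered it by -2.20 ± 0.28 (adjusted p = 2.05e-05). These rest on 25, 26 and 31 reads at 21°C, 4, 7 and 7 reads at 21°C with mannitol, and 7, 0 and 0 reads at 27°C. With so few reads in the lower groups, the sizes depend on the pseudocount.

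**Figure D4:**
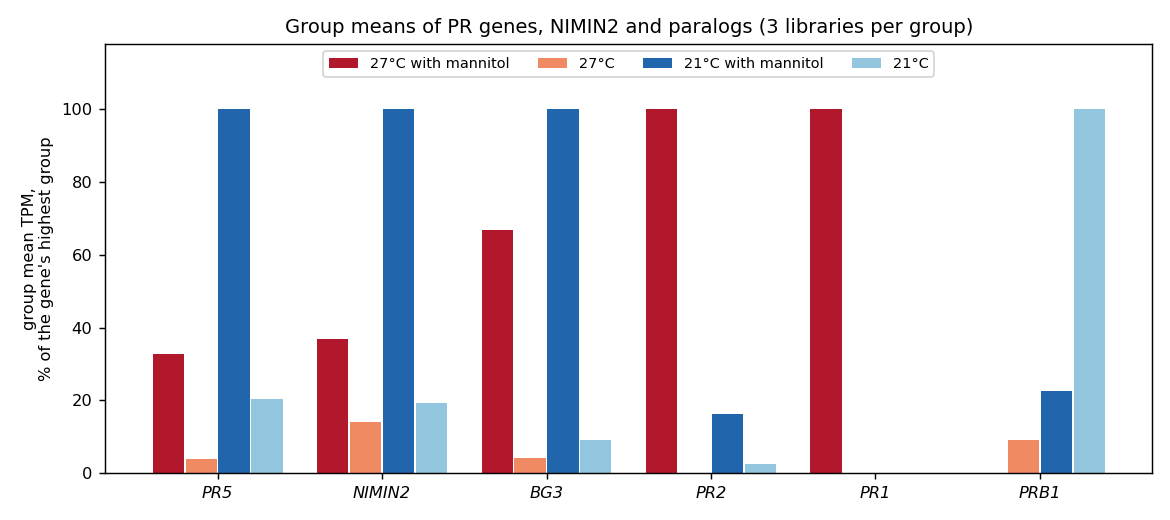
Group mean TPM as a percentage of the gene's highest group mean (vertical axis, from 0) for 6 genes, with 1 bar per group of 3 libraries. PR5, NIMIN2 and BG3 peak at 21°C with mannitol, PR2 and PR1 at 27°C with mannitol, where PR5 reaches 32.6% of its peak, and PRB1 at 21°C.

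The 8 tested genes were also compared with each other across the 12 libraries. NPR3 and NPR4 had the highest Pearson correlation of log2(TPM + 1), 0.958, followed by EDS1 and PR2 at 0.916, and NIMIN2 with PR5 stood at 0.880. PR2 and PR5 reached 0.431, and NPR4 and PR5 had the lowest value, 0.326. These correlations describe 12 libraries from 4 groups that share those groups, with no test. Among all tested genes, those closest to PR5 were AT1G55450 (0.991) and SEC1B (0.983), and those closest to PR2 were MVP1 (0.985) and SS2 (0.984). NPR3 was nearest to WRKY25 (0.991) and ALPHA DOX2 (0.986), and NPR4 to DJ1A (0.981) and MYB59 (0.980). EDS1 was nearest to AT5G39130 (0.985) and ATBFRUCT1 (0.980), PAD4 to NIT2 (0.982) and AT1G23440 (0.970), NIMIN2 to HIR2 (0.950) and OPT6 (0.943), and NPR1 to YSL4 (0.961) and PSKR1 (0.960).

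The wider pathway was read from 7 lists holding 58 genes, none of them among the 10, of which 51 were tested. Mannitol raised 39 and lowered 0 at 27°C, and raised 38 and lowered 1 at 21°C, the fallen gene being PRB1; the medians were 0.80 and 0.83, against 0.17 and 0.08 over all tested genes. Of all tested genes 27.7% rose and 6.80% fell with mannitol at 27°C, and 15.4% rose and 4.61% fell at 21°C, which are the shares to set beside each list count. Of the 51 genes, 6 passed the filter only through mannitol libraries: BG3, DLO1, WRKY38, WRKY46, WRKY62 and SAG13. These had to be higher in at least 3 mannitol libraries than in any library without mannitol, so their direction is no independent support. With rescaling 32 genes were called at 27°C and 35 at 21°C. Warmth raised 17 and lowered 7 without mannitol, and raised 15 and lowered 9 with it, where 28.2% and 16.6% of all tested genes rose and fell without mannitol and 37.5% and 16.5% with it. These warmth counts lie near those shares. The interaction was called positive for 1 gene, the salicylic acid exporter EDS5 of the chloroplast envelope (0.65 ± 0.17, adjusted p = 0.0366), and negative for 5. Of all tested genes 2.43% had a called positive interaction and 2.69% a called negative one. Those shares also belong beside the interaction calls named below for single lists.

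Upstream of the receptors, mannitol at 27°C raised 4 of 6 synthesis genes, led by the transcription factor CBP60G (2.16 ± 0.19) and the amino acid conjugating enzyme PBS3 (1.16 ± 0.20), and 4 of 6 at 21°C. ICS1, the main synthesis enzyme, was 2.14 times as high with mannitol at 27°C on the TPM + 1 scale (adjusted p = 1.99e-05) and 1.58 times at 21°C (adjusted p = 0.00238). Of 6 tested turnover genes 5 rose at each temperature. The salicylic acid hydroxylase DLO1 had the largest difference among them, at 2.76 ± 0.26 at 27°C and 2.77 ± 0.26 at 21°C. DLO1 passed the filter only through mannitol libraries, so its direction is no independent support. Without mannitol it stood at 0.330 TPM at 27°C and 0.0711 TPM at 21°C, so the size depends on the pseudocount. Its relative DMR6 had 27.0 TPM at 27°C with mannitol against 7.29 TPM at 27°C (1.75 ± 0.15, adjusted p = 8.49e-07). The glucosyltransferase UGT76B1, which caps both salicylic acid and a systemic immune signal, stood at 65.9 TPM at 27°C with mannitol against 40.7 TPM at 27°C, and at 72.5 TPM at 21°C with mannitol against 21.4 TPM at 21°C; its interaction was -1.06 ± 0.16 (adjusted p = 0.00104). Of the 3 tested genes of systemic acquired resistance, which include UGT76B1, 2 rose at 27°C and 3 at 21°C, FMO1 by 1.27 ± 0.27 and 1.99 ± 0.27.

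The NPR1 list holds its kin (NPR2, BOP1, BOP2), the TGA factors, NIMIN3, TRX5, CUL3A, CUL3B and SNI1, and 10 of these 15 genes rose with mannitol at 27°C, 8 of 15 at 21°C, and 0 fell at either. TGA7 stood at 47.7 TPM at 27°C with mannitol against 21.6 TPM at 27°C (1.11 ± 0.08, adjusted p = 1.91e-07). NPR2, the relative of NPR1, stood at 6.31 TPM at 27°C with mannitol against 1.84 TPM at 27°C (1.35 ± 0.17, adjusted p = 4.02e-05), a larger log2 difference than that of NPR1 itself, though the 2 were not tested against each other. The thioredoxin TRX5 (AT1G45145), which reduces NPR1, rose by 0.99 ± 0.15 at 27°C and 1.46 ± 0.15 at 21°C, and warmth lowered it by -0.66 ± 0.15 (adjusted p = 0.00248). The EDS1 list holds SAG101, EDS1B, the helper immune receptors of the ADR1 and NRG1 families, and NDR1, and 6 of these 8 genes rose at each temperature. At 27°C the helper receptors led, with NRG1.2 at 0.89 ± 0.09, ADR1 at 0.84 ± 0.12 and ADR1-L1 at 0.80 ± 0.08. At 21°C NDR1 led, followed by SAG101, a partner of EDS1, at 0.91 ± 0.09 and ADR1-L1 at 0.83 ± 0.08. NDR1, which serves a separate class of immune receptors, rose by 1.05 ± 0.15 at 21°C and stood at 0.19 ± 0.15 at 27°C (adjusted p = 0.363), with a called interaction of -0.86 ± 0.22 (adjusted p = 0.0332).

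Downstream, 10 of the 13 transcripts on the salicylic acid response list were tested and were called higher with mannitol at both temperatures. Of these, 4 (WRKY38, WRKY46, WRKY62 and SAG13) passed the filter only through mannitol libraries. That favoured a higher level there, so their direction is no independent support. WRKY53 led at both, with 17.7 TPM at 27°C with mannitol against 1.68 TPM at 27°C, and 18.4 TPM at 21°C with mannitol against 1.85 TPM at 21°C. At 27°C it was followed by WRKY46 (1.77 ± 0.26), WRKY38 (1.56 ± 0.26) and WRKY62 (1.51 ± 0.27), and at 21°C by ACD6, WRKY62 (1.74 ± 0.27) and the glutaredoxin GRX480 (1.74 ± 0.22). ACD6, a membrane protein that amplifies the response, rose by 1.01 ± 0.16 at 27°C and 2.18 ± 0.16 at 21°C. ACD6 and WRKY18 had the called negative interactions of that list, at -1.17 ± 0.23 (adjusted p = 0.00753) and -0.86 ± 0.16 (adjusted p = 0.00560). Like PR5, ACD6 was highest at 21°C with mannitol, at 81.4 TPM there against 17.1 TPM at 21°C, and it had 18.4 TPM at 27°C with mannitol against 8.63 TPM at 27°C. Of the other PR proteins, the chitinase PR3 rose by 1.32 ± 0.22 at 27°C and 0.97 ± 0.22 at 21°C and the chitin-binding PR4 by 1.72 ± 0.15 and 1.40 ± 0.15. Neither passed for warmth (PR3 -0.36 ± 0.22, adjusted p = 0.203; PR4 -0.27 ± 0.15, adjusted p = 0.162).

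**Figure D5:**
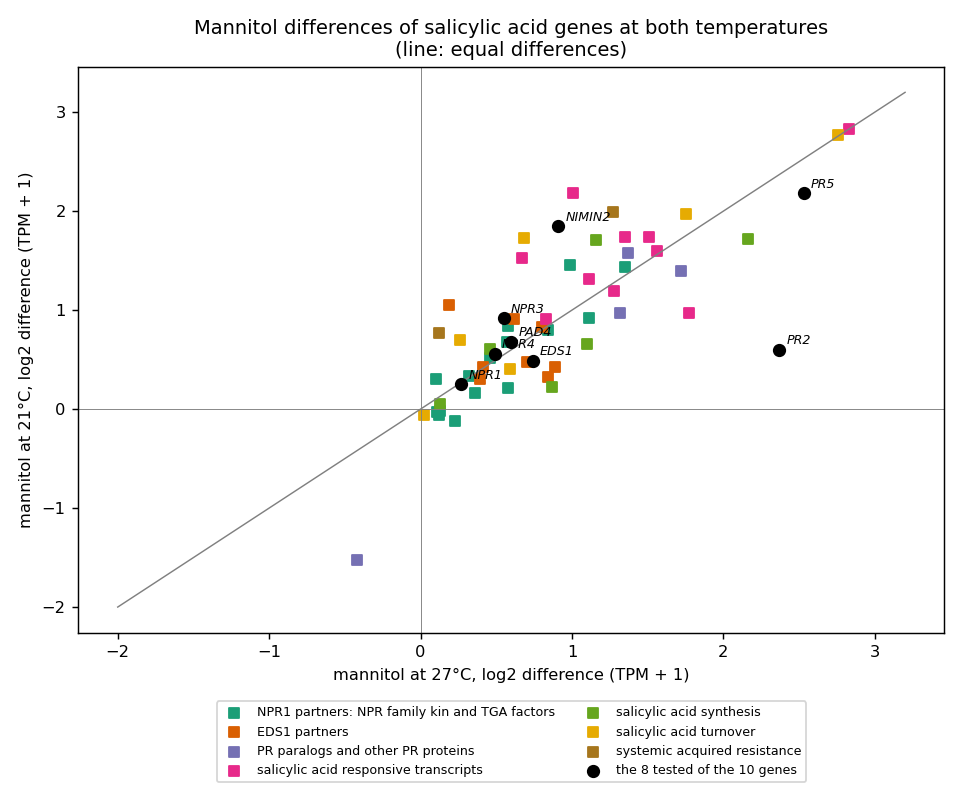
Log2 difference with mannitol at 27°C (horizontal axis) against that at 21°C (vertical axis), on the log2(TPM + 1) scale, for the 8 tested of the 10 genes (black circles) and the 51 tested genes of the 7 lists (coloured squares). Most points lie above 0 on both axes; PR2 lies furthest to the right of the line of equal differences, and PRB1 alone lies far below 0.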

How the data were processed

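RNA was measured in 12 libraries, 3 in each of 4 groups, which were assigned from the sample titles. The authors deposited 1 table of TPM values, although its column names end in geneCounts: the 12 columns each total 1000000 and hold decimals. Its header holds 12 names and none for the gene identifiers, so names were assigned to value columns in order. The submitters' processing notes name fastp 0.20.1, HISAT2 2.1.10, DESeq2 1.26.0 and TAIR10 without role or order; the counter, gene lengths and filters are not named by the sources at hand.

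Here, log2(TPM + 1) was modelled by group (4 means) in limma 3.58.1 under R 4.3.3, with a mean-variance trend and two-sided p-values adjusted by Benjamini-Hochberg over 20005 genes with at least 1 TPM in at least 3 libraries; 7650 genes were left out. The code was tested on simulated data. Reads were recovered as the common step of each gene's TPM values, whole within 0.01 for 21760 of 21760 genes above 0 in at least 6 libraries; they served for depth, for limits at low levels and for a voom alternative. The TPM values fix no absolute scale beyond that, so these reads are a reconstruction.

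Alternatives were other pseudocounts (0.1 and 5), filters, rescaling, a replicate block, no trend, only the groups compared, and each library left out. All 10 genes are named. Up to 4 genes of each list were named for each comparison described, by size among those passing, as were the 2 genes most correlated with each tested gene, plus the near paralogs. The genes and lists were chosen with earlier results of these data known. Promoter windows and coordinates are those of the RefSeq TAIR10.1 assembly, since the table holds none; 27445 identifiers matched its genes.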

Additional observations from a re-analysis of the deposited data

Results flagged for a closer look

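PR2 was flagged because its mannitol difference differed between the 2 temperatures by the interaction test, at 1.77 ± 0.27 on the log2(TPM + 1) scale (adjusted p = 0.00116 with limma). PR2 was higher in 3 of 3 libraries at 27°C with mannitol, against 3 libraries listed at 0 at 27°C. Groups of 3 libraries are too small for a test of single outlying libraries, and none was made. PR2 passed the filter on low values through the libraries where it was highest and is set against a group at 0 reads, so its adjusted p is no independent support.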

How the results depend on the processing

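In 312 recomputed counts 295 stayed within 1.5 times the main count, and of 812 recomputed gene differences 763 kept their direction and their side of the threshold. The number of the 10 genes with a called interaction, 1 in the main analysis, was 2 with a pseudocount of 5, 2 with median-of-ratios rescaling, 2 with voom and 0 with at least 5 TPM in 3 libraries, where PR2 was not tested; it was between 0 and 2 with single libraries left out. With rescaling, warmth with mannitol changed 3 of the 10 genes in place of 6. Leaving out single libraries gave 5 to 8 of the 10 genes for mannitol at 27°C (5 without 27°C with mannitol replicate 2, where PR2 fell below the filter and NPR1 and NIMIN2 missed the threshold), 655 to 1765 called interactions over all genes in place of 1024 (1765 without 27°C replicate 1, 667 without 27°C with mannitol replicate 2, 666 without its replicate 3, and 655 without 21°C with mannitol replicate 3), and 3 to 7 in the wider lists in place of 6 (3 without 27°C with mannitol replicate 3 or 21°C with mannitol replicate 1 or 3). Signs turned for values that had not passed. For NPR1 these were the interaction (-0.06 with rescaling, -0.03 with voom, -0.06 to 0.07 with a library left out), warmth (-0.02 with rescaling) and warmth with mannitol (-0.08 with rescaling). For PAD4 they were warmth (-0.07 with rescaling, -0.03 with voom, -0.07 to 0.10 with a library left out), warmth with mannitol (-0.16 to 0.06) and the interaction (-0.17 to 0.05), and for PR5 the interaction (-0.25 with a pseudocount of 5). Where no construction is named, the cause was not tested. Replicate numbers did not pair the libraries: same-numbered residuals correlated between -0.076 and 0.128, and the own number was the best match in 6 of 36 cases. With a replicate block 6 of the 10 genes passed for mannitol at 21°C in place of 7, PR2 reaching adjusted p = 0.0547, and the calls of the other genes among the 10 did not change. Depth limits PR1, NIMIN1 and PR2, which rest on between 0 and 43 reads per library, and NIMIN2, on between 2 and 40. Among the paralogs it also limits BG3, on between 0 and 35 reads, and PRB1, on between 0 and 31.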
